A study of Homo sapiens with 6 samples.

Results

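The keratin genes of the human genome lie in 2 clusters, the type II genes on 12q13 and the type I genes on 17q21, and both were followed here through Hi-C maps of 4 carcinoma cell lines. Described in full are 10 genes, which were chosen by name for their use as epithelial markers: *KRT80*, *KRT7*, *KRT5*, *KRT8* and *KRT18* on 12q13, and *KRT20*, *KRT23*, *KRT19*, *KRT14* and *KRT17* on 17q21. They overlap 13 of the 75918 40-kb bins of chromosomes 1 to 22 and X, and they are 10 of 20098 protein-coding genes. The other 45 keratin genes of the clusters are given as a list. On 12q13 the cluster ran from *KRT80* to *KRT18* (chromosome 12, 52562780 to 53346690, hg19) and held 27 keratin genes in 20 bins. On 17q21 it ran from *KRT222* to *KRT17* (chromosome 17, 38810917 to 39781094) and held 28 keratin genes and 34 genes of keratin-associated proteins, the matrix proteins of hair, in 25 bins.

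Keratins are the intermediate filaments of epithelial cells, and a filament is built from pairs of a type I and a type II protein. *KRT8* and *KRT18* form the usual pair of simple epithelia, where *KRT7* and *KRT19* are also made, and *KRT20* is a keratin of intestinal epithelium. *KRT5* and *KRT14* are the pair of basal cells of stratified epithelia, and *KRT17* is made in basal and squamous cells. *KRT18* is the exception in position, a type I gene that lies next to *KRT8* at the end of the type II cluster.

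The study profiled how chromatin folds in cancer genomes, and its cell line part comprised in situ Hi-C of SW480 and SNU-C1 (colorectal adenocarcinoma), HCC1954 (breast adenocarcinoma) and OE33 (esophageal adenocarcinoma). All are established lines without a treatment, so they stand for 4 tumour genomes and not for the normal epithelium of these organs. Their chromosomes are rearranged. In OE33 the paper describes an inversion on chromosome 17 around *ERBB2*, which gave a fused domain there. For SW480 the maps comprised replicates 1 and 2 and an unnumbered map, while each of the other lines was represented by 1. The unnumbered map equalled the sum of both at 99.9% of bin pairs and was taken as their pool. Within chromosomes the maps of the 4 lines held between 89418425 (OE33) and 133384114 (SW480, both replicates pooled) read pairs of different bins, and the SW480 replicates held 65986524 and 67369013.

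Since 3 of the 4 lines had a single map, no test across samples was made and no p-value is given. Ranges in brackets after a value are exact 95% intervals, those of differences between log2 ratios are combined from them by a normal approximation, and both take in the error of counting read pairs alone. The spread between replicates was known for SW480 alone. Hi-C measures contacts, not RNA, so nothing here says whether a keratin gene was expressed. All 45 bins of both clusters had at least 0.25 of the median coverage in every line and were used.

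Both clusters have letters in or around them that match the core consensus of CTCF, the protein found at many loop anchors and domain boundaries. The match is 13 bases long, and it was searched on both strands of the GRCh37 sequence, the build of the bins. The 8 windows below are shown because their bins held, in 1 line or more, the highest contact of a member gene at least 400 kb away or the boundary beyond *KRT18*. Highest contacts are here those with the iterative correction described below. Each is written 5′ to 3′ on the strand of the match, with the match in capitals.
Between *SMIM41* and *KRT80*, chr12:52515797-52515825, minus strand: aggacctcCCACTAGAGGGCGcgacggtc
Outside *KRT80*, chr12:52557872-52557900, plus strand: tgtcacggCCAGCAGAGGGCAgaggttgc
Beyond *KRT18*, chr12:53374768-53374796, minus strand: ctagaaggCCACCAGGGGGCAgagggagg
In *SPRYD3*, chr12:53459886-53459914, plus strand: ggaagtgaCCACCAGAGGGCGtgctgagg
Near *KRT28*, chr17:38959951-38959979, plus strand: ttctccttCCACCAGGGGGCAgggctcgt
In *KRT36*, chr17:39643210-39643238, plus strand: ctctccctCCAGCAGGTGGCGgtaggtag
Beyond *KRT17*, chr17:39804308-39804336, minus strand: caagatggCCAGCAGAGGGCGctcctgct
Beyond *KRT17*, chr17:39822311-39822339, minus strand: gggcccggCCAGCAGAGGGCGccgcgagc

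The window outside *KRT80* lies 4901 bases beyond *KRT80*, in a bin that overlaps no protein-coding gene. The windows beyond *KRT17* lie 23221 bases from that gene and 22819 bases from *EIF1*, and share a bin. Of all usable bins, 10.4% on chromosome 12 and 14% on chromosome 17 held a match, compared with 3 of 20 bins inside the 12q13 cluster and 2 of 25 inside the 17q21 cluster. In the 400 kb outside the clusters, matches lay in 6 of 10 bins before *KRT80* and in 3 of 10 beyond *KRT18*. On 17q21 they lay in 1 of 10 bins before *KRT222* and in 4 of 10 beyond *KRT17*. The bins of *KRT10* at 38.96 Mb, *SMARCE1* at 38.76 Mb and *SOAT2* at 53.48 Mb, which also held a highest contact or the boundary in some line, have no match. The bin of *EIF4B* at 53.4 Mb, which held the boundary beyond *KRT18* in some lines at the shorter distances described below, has none either. Single matches were listed within 400 kb of the clusters. The bin of *MED24* and *THRA* at 38.2 Mb, which held a highest contact in OE33, lies outside this range. A match is a description of the letters and does not show that CTCF was bound.

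Coverage, the read pairs of a bin over the median of the autosomes, set OE33 apart on 17q21. *KRT19*, a keratin of simple epithelia, had a coverage of 1.42 in SW480, 1.09 in SNU-C1 cells, 1.99 in HCC1954 and 20.4 in OE33. *KRT14* had 1.0, 0.780, 1.14 and 14.5, and *KRT17* had 0.863, 0.483, 0.747 and 12.3, in the same order of lines. All 3 genes thus lay far above the autosomal median in OE33 alone. *KRT20* and *KRT23*, in the same cluster, did not share this. *KRT20* had a coverage of 1.52 in SW480, 1.38 in SNU-C1 cells, 2.29 in HCC1954 and 0.835 in OE33, and *KRT23* had 1.68, 1.36, 2.28 and 0.848. For these genes OE33 was the lowest of the lines and HCC1954 the highest.

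The change fell within a single step of neighbouring bins. Between the bin at 39.32 Mb, which ends the *KRTAP4* genes and holds *KRTAP9-1*, and the bin at 39.36 Mb, with *KRTAP9-2*, *KRTAP9-3* and *KRTAP9-8*, coverage relative to the other lines rose 20.2-fold in OE33. Between the same bins it changed 0.876-fold in SW480, 0.814-fold in SNU-C1 and 0.737-fold in HCC1954. For these lines the median of the others takes in OE33, which went from the lowest to the highest line here. That median thus shifted to another line across the step, and these changes are in part due to it. The 14 cluster bins before the step had a coverage of 0.444 to 0.923 in OE33 (median 0.700), and the 11 bins from the step to *KRT17* had 8.60 to 21.8 (median 16). In SW480 the medians of these stretches were 1.23 and 1.18, in SNU-C1 1.11 and 1.01, and in HCC1954 1.56 and 1.55. The high level of OE33 ran on for 7 bins beyond *KRT17*, at 10.7 to 21.1, and ended before the bin at 40.08 Mb, which holds *ACLY*, *ODAD4* and *CNP*. A smaller step down, from 1.37 to 0.569 relative to the other lines, lay before the cluster at *CCR7*. By coverage the cluster of OE33 thus fell into a proximal stretch with *KRT20* and *KRT23* and a distal stretch with *KRT19*, *KRT14* and *KRT17*, and the results on 17q21 are given with this division. All distances are those of the reference genome, so contacts of OE33 on 17q21 need not describe an intact cluster. The part of rearrangements in them was not tested.

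**Figure D1:**
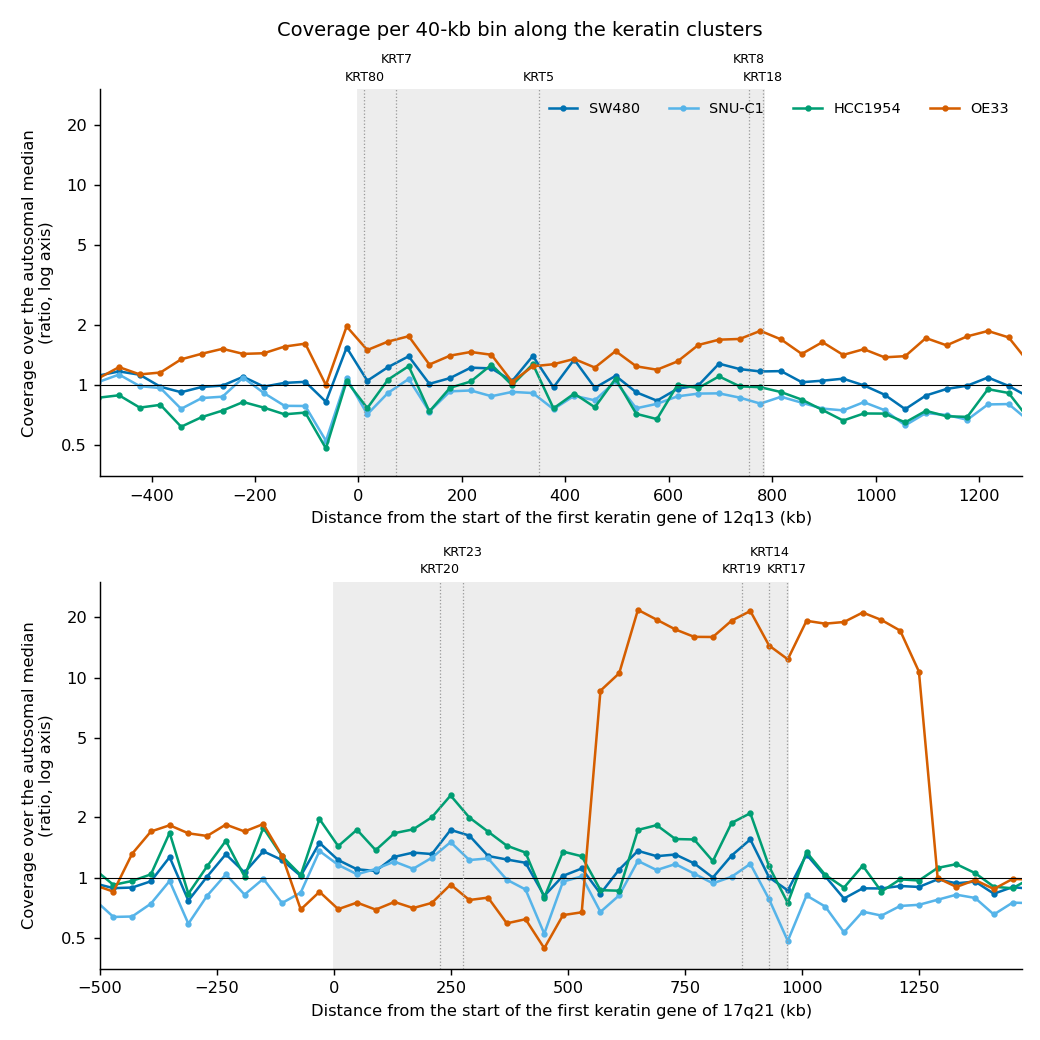
Coverage of each 40-kb bin over the autosomal median of its map (log axis) against the distance from the first keratin gene, for 12q13 (top) and 17q21 (bottom); lines and points are the 4 cell lines, grey shading is the cluster and dotted lines are the member genes. On 17q21 OE33 rises 20.2-fold relative to the other lines between the bins of *KRT23* and *KRT19*, while the cluster bins of the other lines stay between 0.483 and 2.57.

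On 12q13 the lines differed less. *KRT80* had a coverage of 1.05 in SW480, 0.713 in SNU-C1 cells, 0.765 in HCC1954 and 1.49 in OE33, and *KRT7* had 1.31, 0.991, 1.15 and 1.70. *KRT8* had 1.18, 0.835, 0.979 and 1.78, and *KRT18* had 1.17, 0.806, 0.974 and 1.86. OE33 was the highest line at these 4 genes. At *KRT5* it was not, with 1.24 against 1.4 in SW480, 0.910 in SNU-C1 and 1.27 in HCC1954. Relative to the median of the other lines, 6 of 10 members reached 1.5-fold in OE33, where 14.5% of all bins did, namely *KRT80*, *KRT8*, *KRT18*, *KRT19*, *KRT14* and *KRT17*. In HCC1954 2 members did (*KRT20* with 1.65 and *KRT23* with 1.67), where 14.7% of bins did, and in SW480 (7.06% of bins) and SNU-C1 (11.5%) 0 did. At most 1/1.5 of that median was found at 2 members in OE33 (*KRT20* with 0.551 and *KRT23* with 0.505, where 12.6% of bins did) and at 2 in SNU-C1 (*KRT19* with 0.548 and *KRT17* with 0.559, 8.33% of bins), and at 0 in SW480 (6.02%) and HCC1954 (14.4%). At *KRT19* and *KRT17* the median for SNU-C1 takes in OE33 and is thus the higher of the values of SW480 and HCC1954. Coverage is not a measured number of copies, and GC content and MboI sites also enter it. Bins of the members ranged from 40.4% GC at *KRT20* to 55.4% at *KRT17*, and from 81 MboI sites per bin at *KRT80* to 157 at *KRT18*, and these are the same in every line.

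The compartment of a bin was measured as the log2 ratio of its contacts with A blocks over its contacts with B blocks of the same chromosome at least 2 Mb away, each relative to the expected value at that distance. Positive values mean more contact with A, the compartment of gene-rich and mostly active chromatin. *KRT8* had a log2 ratio of 1.94 (1.74 to 2.16) in SW480, 2.03 (1.77 to 2.31) in SNU-C1 cells, 1.36 (1.12 to 1.60) in HCC1954 and 1.86 (1.63 to 2.09) in OE33. *KRT18*, which shares a bin with *KRT8*, had 1.85, 2.12, 1.45 and 1.77. Both genes thus lay firmly in A in the 4 lines, and the percentile of *KRT8* among all bins was 97.6, 98.9, 95.9 and 94.1.

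At the other end of 12q13 the picture was the same. *KRT7* had log2 ratios of 1.76 in SW480, 1.80 in SNU-C1 cells, 1.4 in HCC1954 and 2.08 in OE33. *KRT80*, the first gene of the cluster, had 1.64, 1.65, 1.49 and 1.99. *KRT5*, the basal keratin in the middle of the cluster, was lower in SNU-C1 than at either end. Its log2 ratio was 1.41 (1.14 to 1.68) in SW480, 0.80 (0.48 to 1.13) in SNU-C1 cells, 1.38 (1.05 to 1.72) in HCC1954 and 1.69 (1.31 to 2.09) in OE33. The interval of SNU-C1 at *KRT5* lay below those of SW480 and OE33 and overlapped that of HCC1954. With A and B blocks at least 5 Mb away *KRT5* had 1.26 (0.89 to 1.65) in SNU-C1 cells, 1.58 (1.27 to 1.90) in SW480, 1.71 in HCC1954 and 1.79 (1.37 to 2.22) in OE33, so SNU-C1 was still the lowest but its interval overlapped the others.

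Against blocks of the same chromosome, ratios on 17q21 were positive as well, and smaller than those of every 12q13 member but *KRT5* in SNU-C1 cells. *KRT19* had log2 ratios of 1.0 in SW480, 1.04 in SNU-C1 cells, 0.69 in HCC1954 and 1.22 in OE33. *KRT20*, the intestinal keratin, had 0.65 (0.44 to 0.87), 0.91 (0.65 to 1.19), 0.56 (0.35 to 0.78) and 1.19 (0.82 to 1.58). The colorectal lines SW480 and SNU-C1 did not stand apart from the breast and esophageal lines at *KRT20*, where the highest value was that of OE33 and its interval overlapped those of SW480 and SNU-C1. *KRT23* had 0.88, 1.32, 0.72 and 1.36, with overlap of the intervals of SW480 and HCC1954. *KRT14* had 0.78, 0.66, 0.70 and 1.21, and *KRT17* had 1.02, 1.26, 1.24 and 1.2. In OE33 the genes of the proximal and the distal stretch, which differed in coverage by more than 10-fold, had log2 ratios between 1.19 and 1.36. Without the iterative correction, which is described with the pairs of members, the stretches of OE33 were apart, with 1.59 (1.3 to 1.90) for *KRT20* and *KRT23* together and 2.06 (2.00 to 2.13) for *KRT19*, *KRT14* and *KRT17*, and the latter were level with *KRT5* at 2.10.

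All 10 members were above 0 in each of the 4 lines. Among all bins 48.5% were above 0 in SW480, 44.2% in SNU-C1 cells, 48.3% in HCC1954 and 46.5% in OE33, and 33.7% in all lines together. The other 45 keratin genes did the same, with 45 of 45 above 0 in every line, so the sign was not particular to the members. The lowest of them on 12q13 was *KRT77* in SW480 (0.98), SNU-C1 (0.45) and HCC1954 (0.79) and *KRT1*, the keratin of differentiated epidermis, in OE33 (1.27). The highest was *KRT81*, a hair keratin next to *KRT7*, with 1.82 in SW480, 1.44 in SNU-C1 and 1.86 in OE33, and *KRT79* in HCC1954 with 1.56. On 17q21 the lowest was *KRT26* in SW480 (0.32) and HCC1954 (0.14), *KRT34* in SNU-C1 (0.14) and *KRT40* in OE33 (0.64). The highest there was *KRT39* in SW480 (1.16), *KRT16* in SNU-C1 (1.26) and HCC1954 (1.24) and *KRT15* in OE33 (1.27). *KRT16* lies in the bin of *KRT17*, so they share their values.

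Against blocks of the same chromosome the order of the members was led by 12q13. In SW480 it ran *KRT8*, *KRT18*, *KRT7*, *KRT80*, *KRT5*, *KRT17*, *KRT19*, *KRT23*, *KRT14* and *KRT20*, and all 5 genes of 12q13 stood before those of 17q21. The same held in HCC1954 and OE33, while in SNU-C1 *KRT5* fell to the ninth place, before *KRT14*. In each line the intervals of all 9 pairs of neighbours in that order overlapped, so only members further apart could be told apart. Against A and B blocks of other chromosomes, which could be used in SNU-C1, HCC1954 and OE33, the lead of 12q13 was smaller in SNU-C1 and OE33 and absent in HCC1954. *KRT20* and *KRT23* together had a log2 ratio of 1.81 in SNU-C1 cells, 1.81 in HCC1954 and 1.18 in OE33, and *KRT19*, *KRT14* and *KRT17* had 1.79, 1.73 and 1.16. The bins of *KRT80*, *KRT7*, *KRT8* and *KRT18* had 2.04, 1.79 and 1.31 by the same measure, above 17q21 in SNU-C1 and OE33 and level with it in HCC1954. Their interval overlapped those of both 17q21 groups in SNU-C1 and HCC1954, and in OE33 that of *KRT20* and *KRT23* alone. *KRT5* was then the lowest member in SNU-C1 and the highest in HCC1954 and OE33, with intervals that overlapped those of the next member.

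Within 12q13 the ends and the middle differed most in SNU-C1. The bins of *KRT80*, *KRT7*, *KRT8* and *KRT18* together had a log2 ratio of 1.80 in SW480, 1.85 in SNU-C1 cells, 1.4 in HCC1954 and 1.98 in OE33. The 15 bins of the other keratin genes had 1.34, 0.85, 1.23 and 1.60. Of these bins *KRT81* shares 1 with *KRT7*, and another is the bin of *KRT5*, so *KRT5* is not separate from this group. The ends exceeded the others by 1.0 (0.81 to 1.18) in SNU-C1, by 0.47 (0.32 to 0.61) in SW480, by 0.38 (0.20 to 0.55) in OE33 and by 0.17 (-0.01 to 0.35) in HCC1954. Replicates 1 and 2 of SW480 gave 0.42 and 0.52, a smaller spread than the distance of SNU-C1 to any other line. With A and B blocks of other chromosomes in place of the same chromosome, the difference was 0.52 in SNU-C1 cells, 0.033 in HCC1954 and 0.093 in OE33, so SNU-C1 remained the highest of the lines but by less. By the same measure *KRT5* had 1.54 in SNU-C1 cells, 2.19 in HCC1954 and 1.42 in OE33, and SNU-C1 was not the lowest. Set against the ends of its own line by this measure, which SW480 lacks, *KRT5* was low in SNU-C1 and not in HCC1954 or OE33. The ends exceeded it by 0.51 in SNU-C1 cells, by -0.40 in HCC1954 and by -0.11 in OE33. With blocks of the same chromosome the ends exceeded *KRT5* by 1.05 in SNU-C1 cells, 0.39 in SW480, 0.29 in OE33 and 0.02 in HCC1954.

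In SNU-C1 7 of the 20 bins of 12q13 had a percentile at least 10 points under the lowest other line, compared with 7.41% of all bins. They formed a run from 52.88 Mb, the bin of *KRT5*, to 53.12 Mb, a bin beyond *KRT77* without a protein-coding gene. In SW480 1 of 25 bins on 17q21 did, the bin shared by *KRT20* and *KRT23* (5.11% of all bins), and in HCC1954 (9.45%) and OE33 (4.87%) 0 bins of either cluster did. Coverage of SNU-C1 in the 12q13 cluster ranged from 0.713 to 1.07, without a step at *KRT5*, and its part in these percentiles was not tested. Just outside the 17q21 cluster OE33 was the only line below 0, with log2 ratios of -0.25, -0.35, -0.32 and -0.61 in the 4 bins from 38.56 to 38.68 Mb, at *IGFBP4*, *TNS4* and *CCR7*. These bins end at the smaller coverage step, and the part of that step in these values was not tested.

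**Figure D2:**
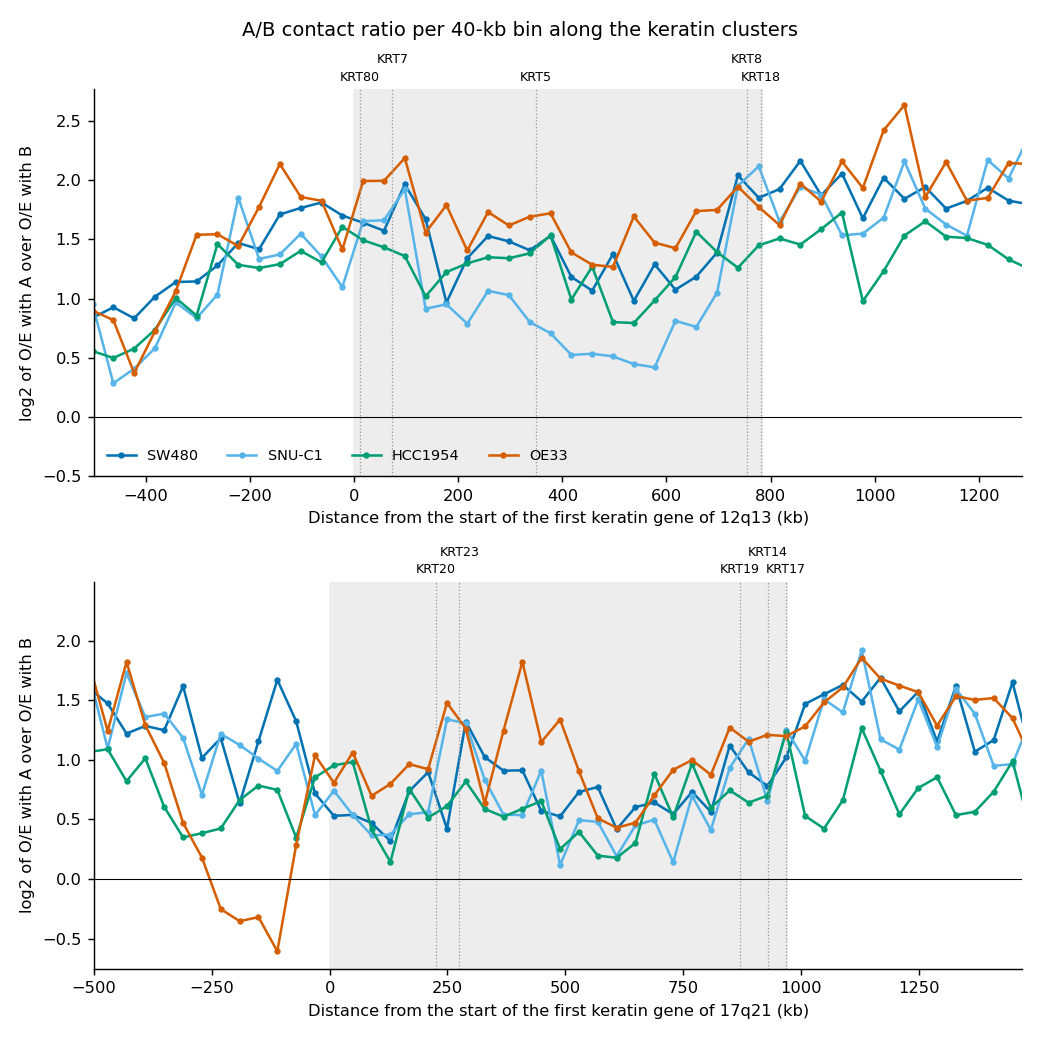
Log2 ratio of contacts with A over contacts with B blocks per 40-kb bin, against the distance from the first keratin gene of 12q13 (top) and 17q21 (bottom), for the 4 lines; grey shading is the cluster. Every line is above 0 across both clusters, SNU-C1 falls to 0.42 beyond *KRT77*, between *KRT5* and *KRT8*, and OE33 is below 0 only before the 17q21 cluster.

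The insulation score compares contacts across a bin within 1 Mb with the average of the chromosome on a log2 scale, and a boundary is a place where the score turns from falling to rising, with a strength of at least 0.1. All lines had a boundary beyond *KRT8* and *KRT18*. Its lowest score was -1.14 in SW480, -1.36 in SNU-C1 cells, -1.2 in HCC1954 and -1.45 in OE33, and the boundary lay at *SPRYD3* in the first 3 and at *SOAT2*, 1 bin further, in OE33. One of the windows printed above lies in that *SPRYD3* bin. With contacts within 480 kb or 240 kb in place of 1 Mb, the boundary lay nearer to *KRT18*, between 53.36 and 53.44 Mb. At the *KRT80* edge scores were higher, with lowest values of -0.67, -0.45, -0.89 and -0.72. A boundary within 200 kb was found there in SW480 and HCC1954, at *ACVR1B*, a receptor of activin, and in SNU-C1 and OE33 it lay 1 bin beyond that reach, at 52.32 Mb. With 480 kb or 240 kb all lines had it within reach, at 52.36 or 52.4 Mb.

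At the *KRT17* edge SW480 and SNU-C1 had a boundary at *HAP1* and HCC1954 at *JUP*, the gene of plakoglobin. Lowest scores there were -1.16 in SW480, -1.43 in SNU-C1 and -1.15 in HCC1954. OE33 had none within 200 kb, and its lowest score there was -2.10 at 39.96 Mb, inside the stretch of high coverage, and 1.24 without the iterative correction described with the pairs of members. Its next boundary was at 40 Mb, in the bin of *KLHL11*, and with 480 kb or 240 kb it had one within reach, at 39.96 Mb. At the *KRT222* edge of 17q21 no line had a boundary within reach at 1 Mb, and the lowest scores were -0.46, -0.80, -0.72 and -0.85. Without the iterative correction that of OE33 was 1.4. The call turned in 3 of 4 lines with the smaller distances, where SW480 had a boundary with a strength of 1.2 at 480 kb and 1.68 at 240 kb, SNU-C1 one of 1.19 and 1.22 and HCC1954 one of 1.02 and 1.10, and OE33 had none. Counted over the 4 edges, SW480 and HCC1954 had a boundary at 3, SNU-C1 at 2 and OE33 at 1, where 45.1%, 45.8%, 47% and 42% of all their bins lie within 200 kb of one. These counts are near the background. With 480 kb or 240 kb SW480, SNU-C1 and HCC1954 had a boundary at all 4 edges and OE33 at 3, and the background rose as well, to 54.8%, 55.7%, 55.1% and 51.7% of bins in SW480, SNU-C1, HCC1954 and OE33 at 480 kb and to 70.9%, 72.3%, 71.8% and 67.6% at 240 kb. Those of the *KRT222* edge at 240 kb lay inside the cluster, at 38.96 Mb in SW480 and HCC1954 and at 38.88 Mb in SNU-C1. That of SW480 at 480 kb lay in the bin of *KRT222* itself. At the *KRT18* edge the lowest score was at the 0.598th percentile of the chromosome in SW480, 0.418th in SNU-C1 cells, 1.22nd in HCC1954 and 1.67th in OE33.

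At 1 Mb OE33 alone had a boundary inside a cluster. It lay at 39.44 Mb at *KRTAP29-1*, with a strength of 1.23, 2 bins after the coverage step, and its score was -0.88 where the other lines had 0.45 to 0.55. The score of OE33 was lower at the step itself, with -1.21 at 39.32 Mb and -1.23 at 39.36 Mb. Without the iterative correction the boundary of OE33 lay at 39.32 Mb, next to the step, with a score of -0.084, and it was still the only one inside a cluster. At 480 kb OE33 had the same boundary as at 1 Mb and SW480 had one at *KRT222*. At 240 kb all lines had one inside the 17q21 cluster, SW480 and HCC1954 at *KRT10*, SNU-C1 at *KRT25* and OE33 at *KRTAP9-6*, and HCC1954 had another at *KRT37*. Those at *KRT222*, *KRT10* and *KRT25* are the same calls that were counted above at the *KRT222* edge. No line had a boundary inside the 12q13 cluster at any of these distances.

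**Figure D3:**
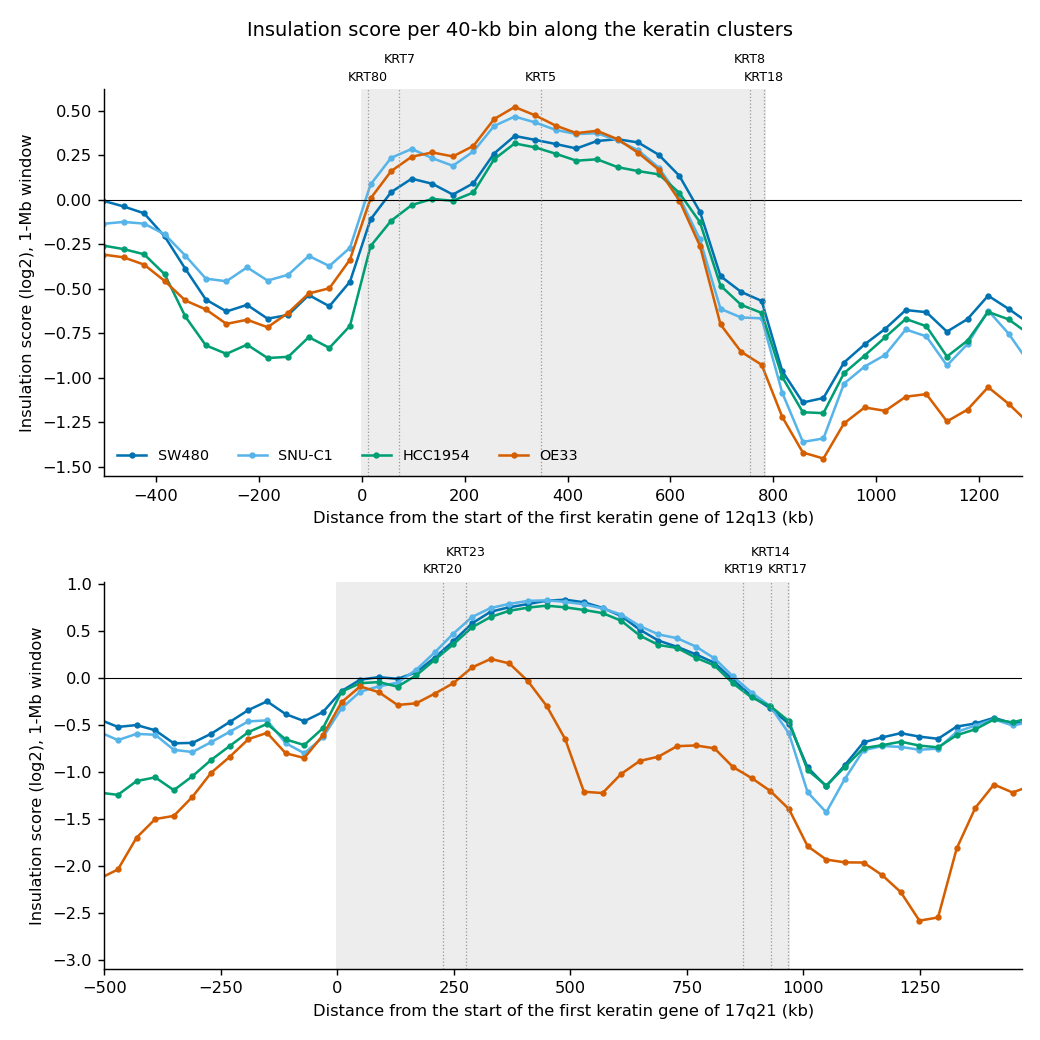
Insulation score (log2, 1-Mb window) per 40-kb bin against the distance from the first keratin gene of 12q13 (top) and 17q21 (bottom), for the 4 lines; grey shading is the cluster, and low values mean few contacts across the bin. All lines reach a minimum of -1.14 or lower beyond *KRT18*, and at *KRTAP29-1* inside the 17q21 cluster OE33 is at -0.88 and the other lines at 0.45 to 0.55.

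Contacts within the clusters were above the average of the genome. On 12q13 the mean observed/expected value (O/E) over 171 bin pairs at least 80 kb apart was 1.69 (1.67 to 1.72) in SW480, 1.42 (1.39 to 1.45) in SNU-C1 cells, 1.46 (1.43 to 1.49) in HCC1954 and 1.63 (1.61 to 1.66) in OE33. Among 3281 windows of the same size these values were at the 99.7th, 99.2nd, 99.2nd and 99.4th percentile. The SW480 replicates had 1.69 and 1.69. With the expected value from chromosome 12 alone the mean was 1.44 in SW480, 1.39 in SNU-C1 cells, 1.38 in HCC1954 and 1.66 in OE33, which was then the highest line. On 17q21 the mean over 276 bin pairs was 1.36 (1.34 to 1.38) in SW480, 1.44 (1.42 to 1.46) in SNU-C1 cells, 1.27 (1.26 to 1.29) in HCC1954 and 1.05 (1.04 to 1.05) in OE33. Percentiles among 2622 windows were 95.6, 99.7, 96.2 and 64.0. OE33 was thus ordinary on 17q21 where the other lines were high, with a ratio of 0.770 to their median. No line passed 1.5-fold of the median of the others in either direction on either cluster. Of windows of the 12q13 size, 2.16% in SW480, 0.335% in SNU-C1 cells, 0.152% in HCC1954 and 0.457% in OE33 did so upwards, and 4.39%, 0.061%, 0.579% and 1.77% downwards. Of windows of the 17q21 size, 2.33%, 0.114%, 0.0381% and 0.381% did so upwards and 4%, 0.0763%, 0.458% and 1.68% downwards. With bin pairs at least 200 kb apart, OE33 did pass on 17q21, where its mean was 0.803 and 0.526 times the median of the others. Without the iterative correction its ratio was 5.49 on 17q21 and 1.75 on 12q13, above the other lines.

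The division of OE33 stood out more in contacts between the stretches than in the mean of the cluster. Across the coverage step the O/E was 1.90 (1.87 to 1.93) in SW480, 1.92 (1.88 to 1.96) in SNU-C1 cells, 1.69 (1.66 to 1.72) in HCC1954 and 0.335 (0.325 to 0.344) in OE33. Within the stretch from *KRT222* to the step, which holds *KRT20* and *KRT23*, it was 1.08, 1.17, 1.06 and 1.81 in the same order. With the iterative correction OE33 was thus the lowest line across the step and the highest line before it. Without the correction OE33 was the lowest line in both, with 1.42 across the step against 2.48, 1.94 and 2.65 and with 0.753 before it against 1.45, 1.25 and 1.70, in the order SW480, SNU-C1 and HCC1954. Within the stretch from the step to *KRT17* OE33 had 0.847, against 1.05, 1.2 and 1.02, and without the correction it had 34.4, against 1.3, 1.08 and 1.45.

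Pairs of member genes on one chromosome were compared over the bins of both genes with 1 bin added on each side. Of the 20 pairs, 15 were at least 80 kb apart, and since genes share bins the pairs are not independent. The first to be described are the simple-epithelial genes of 12q13. *KRT7* and *KRT8*, 681 kb apart, had an O/E of 3.03 (2.85 to 3.23) in SW480, 2.22 (2.03 to 2.42) in SNU-C1 cells, 2.41 (2.21 to 2.62) in HCC1954 and 2.38 (2.23 to 2.54) in OE33. *KRT7* and *KRT18* had 3.06, 2.08, 2.48 and 2.24. *KRT80* and *KRT8*, 743 kb apart at the cluster ends, had the highest values of 12q13, with 4.65 (4.39 to 4.93) in SW480, 3.91 (3.62 to 4.22) in SNU-C1 cells, 3.70 (3.40 to 4.02) in HCC1954 and 3.25 (3.04 to 3.46) in OE33. At the same separation elsewhere the median O/E was between 0.857 and 0.888, and the pair was at the 99.6th percentile of 59079 positions in OE33 and higher in the other lines. *KRT80* and *KRT18* followed with 4.41, 3.57, 3.68 and 2.88. SW480 was the highest line at all 4 of these pairs, and its replicates had 4.46 and 4.81 for *KRT80* and *KRT8*. With the expected value from chromosome 12 alone SW480 was still the highest, but at each pair its interval overlapped that of another line. *KRT80* and *KRT8* then had 4.11 (3.88 to 4.36) in SW480 and 3.92 (3.63 to 4.23) in SNU-C1 cells.

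*KRT5* took less part in these contacts. With *KRT7*, 275 kb away, it had an O/E of 1.03 in SW480, 0.811 in SNU-C1 cells, 0.936 in HCC1954 and 1.08 in OE33, and with *KRT80* 1.57, 1.31, 1.5 and 1.41. *KRT5* and *KRT8* had 2.30 (2.16 to 2.45) in SW480, 1.3 (1.18 to 1.43) in SNU-C1 cells, 1.69 (1.54 to 1.84) in HCC1954 and 1.37 (1.26 to 1.49) in OE33. *KRT5* and *KRT18* had the widest range of the 12q13 pairs as a ratio of the highest to the lowest line, with 2.08 (1.92 to 2.25) in SW480, 0.874 (0.757 to 1.0) in SNU-C1 cells, 1.39 (1.23 to 1.56) in HCC1954 and 0.965 (0.859 to 1.08) in OE33. SW480 lay above the other lines at the latter pair by more than the counting error, and its replicates gave 2.06 and 2.08.

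On 17q21 the pairs that span the cluster were as strong in 3 lines and below 1 in OE33. *KRT20* and *KRT19*, 645 kb apart, had an O/E of 3.75 (3.59 to 3.92) in SW480, 4.01 (3.81 to 4.22) in SNU-C1 cells, 3.60 (3.44 to 3.77) in HCC1954 and 0.691 (0.643 to 0.742) in OE33. *KRT20* and *KRT17* had 3.65, 4.76, 3.49 and 0.548, and *KRT20* and *KRT14* 3.52, 4.12, 3.15 and 0.585. The pairs of *KRT20* were thus high in the colorectal lines and in the breast line alike. *KRT23* showed the same order, with 3.09, 3.37, 2.96 and 0.572 to *KRT19*, with 2.90, 3.28, 2.62 and 0.475 to *KRT14* and with 2.96, 3.56, 2.91 and 0.434 to *KRT17*. *KRT19* and *KRT17*, both beyond the step and 96 kb apart, had 1.43, 1.5, 1.5 and 0.758.

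Of the 15 pairs, 15 had an O/E of at least 1 in SW480, 13 in SNU-C1 cells, 14 in HCC1954 and 7 in OE33, where positions at the same distances did so in 41.9%, 42.3%, 42.1% and 43.1% of cases. At least 2 was reached by 12, 10, 10 and 4 pairs, against 3.87%, 4.13%, 4.16% and 4.42% of positions. In OE33 the 6 pairs across the step had at most 1/2 of the O/E of the lowest other line, where 0.622% of positions did, and in SW480 (0.193% of positions), SNU-C1 (0.261%) and HCC1954 (0.443%) 0 pairs did. The pair of *KRT20* and *KRT19* rested on 1984 read pairs in SW480, 1445 in SNU-C1 cells, 1906 in HCC1954 and 764 in OE33.

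These values were corrected iteratively, which divides the contacts of a bin by its coverage, and in OE33 the coverage of *KRT19*, *KRT14* and *KRT17* was more than 10 times that of *KRT20* and *KRT23*. The read pairs without this correction were therefore set beside them. Without it *KRT20* and *KRT19* had an O/E of 5.93 (5.67 to 6.20) in SW480, 4.81 (4.56 to 5.06) in SNU-C1 cells, 7.74 (7.40 to 8.10) in HCC1954 and 3.60 (3.35 to 3.87) in OE33. OE33 remained the lowest line at each of the 6 pairs across the step, at 2.21 to 3.60, but all 6 were above 1 and none was at most 1/2 of the lowest other line. *KRT19* and *KRT17*, both in the stretch of high coverage, went from the lowest value with the correction to the highest without it, 31.8 in OE33 against 1.71, 1.06 and 1.83. On 12q13 the order of the lines changed as well. *KRT80* and *KRT8* had 5.50, 3.69, 3.65 and 7.30 without the correction, so that OE33 was the highest line and not the lowest. In SW480, SNU-C1 and HCC1954 the pairs of *KRT80* or *KRT7* with *KRT8* or *KRT18* were at 1.76 or more either way. The O/E below 1 in OE33 on 17q21 thus held with the correction alone, and the part of the coverage step in it was not tested.

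**Figure D4:**
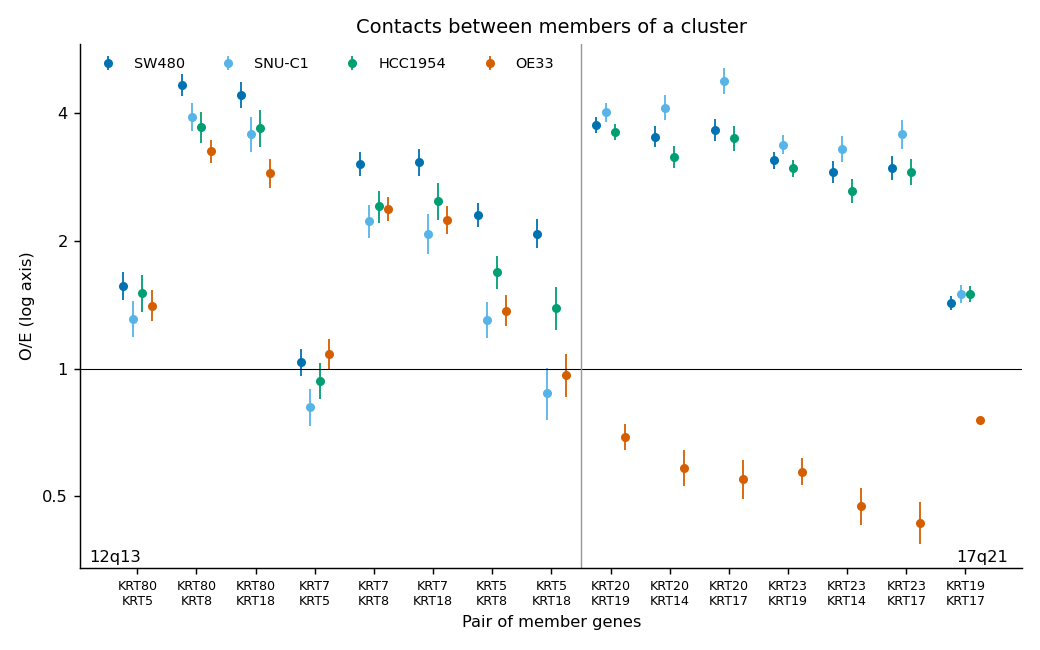
O/E (log axis) of each pair of member genes at least 80 kb apart, for the 4 lines; points are values and bars exact 95% Poisson intervals, with the 12q13 pairs left and the 17q21 pairs right of the vertical line. The 6 pairs that join *KRT20* or *KRT23* to *KRT19*, *KRT14* or *KRT17* lie at 2.62 or more in 3 lines and at 0.691 or less in OE33. Values carry the iterative correction, without which these pairs of OE33 are not below the expected value.

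Contacts were also followed from the bins of single members. From the bins of *KRT8* and *KRT18*, the highest O/E among 30 bins at least 400 kb away fell in all lines in the bin at 52.52 Mb, which holds the window outside *KRT80*. It was 5.98 in SW480 (271 read pairs), 5.55 in SNU-C1 cells (169), 4.57 in HCC1954 (115) and 3.37 in OE33 (183), and the median over these bins was 0.924, 0.743, 0.789 and 0.535. The replicates of SW480 had 5.45 and 6.47 in the same bin. This bin was again the highest in all lines without the iterative correction, with 8.45, 6.02, 4.86 and 9.17. *KRT5* too had more contact with that bin, 3.15, 2.41, 2.79 and 2.5, than with the next bin, that of *KRT80*, with 1.73, 1.23, 1.29 and 1.25. On the other side the bin of *KRT78* at 53.24 Mb, less than 400 kb away, had 3.07, 2.13, 2.64 and 2.12 with *KRT5*. The bin at 53.36 Mb, with the first window beyond *KRT18*, was lower in every line, at 2.88, 1.57, 2.35 and 1.05. Among the bins at least 400 kb away it was the highest in SW480, SNU-C1 and HCC1954, while in OE33 it was the bin of *SMIM41* at 52.48 Mb (1.56), with the window between *SMIM41* and *KRT80*. Without the correction the highest was again at 53.36 Mb in SW480 and HCC1954, and elsewhere in SNU-C1 (52.08 Mb) and OE33 (52.4 Mb).

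From the bins of *KRT20* and *KRT23* the highest value among 34 bins fell in the bin at 39.8 Mb, with both windows beyond *KRT17*, in 3 lines. It was 4.86 in SW480 (414 read pairs), 6.02 in SNU-C1 (284) and 5.01 in HCC1954 (352), and OE33 had 0.565 (115) in this bin. The bin of *KRT36*, *KRT13*, *KRT15* and *KRT19* at 39.64 Mb had 4.08, 5.01, 4.54 and 0.924, and in OE33 this bin, with the window in *KRT36*, was the highest. With the keratin-associated genes before the step, *KRT20* and *KRT23* of OE33 had an O/E of 3.16 in the bin at 39.28 Mb from 171 read pairs, against 1.56 (394), 1.5 (308) and 1.45 (365), and of 0.401 in the first bin after it. In the bin at 39.28 Mb OE33 was the lowest line without the iterative correction, with 1.39 against 2.19, 1.79 and 2.75. The highest bin from *KRT20* and *KRT23* was then that at 39.68 Mb in SW480 (8.74) and SNU-C1 (6.72) and that at 39.64 Mb in HCC1954 (11.1) and OE33 (4.96), both of which hold *KRT19*, while the bin at 39.8 Mb had 8.30, 6.49, 9.58 and 3.70. From *KRT14* and *KRT17*, the highest bin was that of *KRT26*, *KRT27* and *KRT28* in SW480 (4.22), which holds the window near *KRT28*, and that of *KRT10* in SNU-C1 (6.30). The bin of *KRT10* had 4.13 in SW480, and the replicates differed in their highest bin, with 4.63 at *KRT28* in replicate 1 and 4.64 at *KRT10* in replicate 2. In HCC1954 it was the bin of *SMARCE1* before the cluster (3.41), and in OE33 the bin of *MED24* and *THRA* at 38.2 Mb (2.43 from 702 read pairs). Without the correction the highest bin was that of *KRT10* in SW480 as well (4.71), and in HCC1954 that of *KRT20* and *KRT23* at 39.04 Mb (5.33). SNU-C1 and OE33 kept their highest bins, but the value of OE33 at 38.2 Mb was then 91.5, against 4.53 in SNU-C1 at *KRT10*. Each of these is the highest of many bins, so its size is a description.

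**Figure D5:**
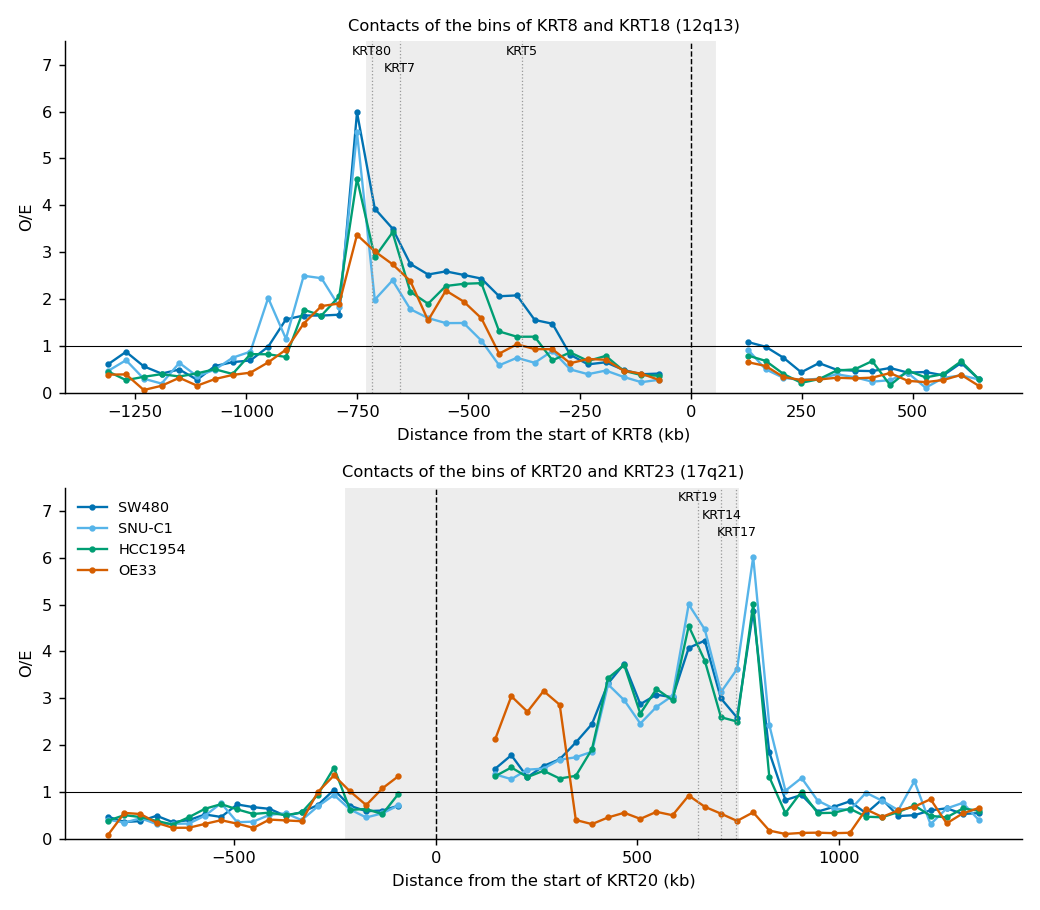
O/E of the bins of *KRT8* and *KRT18* (top) and of *KRT20* and *KRT23* (bottom) with each bin around them, against the distance from the dashed line, for the 4 lines; grey shading is the cluster and dotted lines are the other members. The peak outside *KRT80* stands at 3.37 to 5.98 in all lines, and the peak beyond *KRT17* at 4.86 to 6.02 in 3 lines and at 0.565 in OE33. Values carry the iterative correction, without which the bin beyond *KRT17* is not below the expected value in OE33.

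Bin pairs specific to a line were those that reached an O/E of 4 and exceeded every other line 4-fold, and with the iterative correction they were few around the members. On the 12q13 window of 52 to 54 Mb, SW480 had 1 of 1032 bin pairs, between 52 and 55.04 Mb and outside the cluster (0.0719% of bin pairs in the genome). Either SW480 replicate alone had 0, which says little, since the pair had 11 read pairs in the pool and 10 are needed. SNU-C1 had 0 of 781 (0.519%), HCC1954 0 of 602 (0.651%) and OE33 0 of 824 (0.0442%). On 17q21 OE33 had 13 of 2196, or 0.592%, against 0.0442% of its bin pairs in the genome, and SW480, SNU-C1 and HCC1954 had 0 of 837, 535 and 719. A pair was counted only with at least 10 read pairs in the line itself, so the high coverage of OE33 let in more pairs there. These shares are therefore not alike, and no excess of specific contacts can be read from them. Without the correction OE33 had 1696 of 2196, of which 1154 had an end in the cluster, and the other lines still had 0. Of the 13 with the correction, 2 had an end inside the cluster. One joined the *KRT19* bin at 39.68 Mb with 73.96 Mb of chromosome 17 (O/E 4.73 from 16 read pairs) and the other, with the highest ratio, joined 39.52 Mb, with *KRT33B*, *KRT34* and *KRT31*, to 80.12 Mb (5.49 from 11 read pairs). Both ends in the cluster lie in the stretch of high coverage, and both pairs rest on few read pairs. The highest O/E of the other lines was 0 at both.

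Contacts between the 2 clusters could be measured in SNU-C1, HCC1954 and OE33, since the SW480 maps held 0.216% of their read pairs between chromosomes. The mean O/E over 500 bin pairs was 3.11 (1.66 to 5.32) in SNU-C1 from 13 read pairs, 4.38 (2.86 to 6.41) in HCC1954 from 26 and 3.73 (3.24 to 4.27) in OE33 from 210. The interval of OE33 is too narrow, since 198 of its read pairs came from the distal stretch of high coverage. The intervals overlapped, and a difference between the lines was not detectable at this depth. With the expected value taken over A with A blocks the means were 2.10, 2.79 and 2.47, and with that over chromosomes 12 and 17 they were 2.59, 2.49 and 2.62, so the order of the lines was not kept. Without the iterative correction OE33 had 17.3, with the coverage of the distal stretch counted in full. All 3 values exceeded 1.5. Of the 1-Mb block pairs of chromosomes 12 and 17, 29.7% reached this size in SNU-C1 cells, 48.7% in HCC1954 and 37.3% in OE33, and of A with A block pairs of all different chromosomes 39.7%, 43.9% and 43.9%. Among A with A block pairs of chromosomes 12 and 17 the clusters were at the 84.8th, 86.4th and 93.6th percentile. They were at the 95.6th, 96.2nd and 98.8th among all block pairs of these chromosomes, and at the 93.6th, 98.1st and 99th among A with A block pairs of all different chromosomes. By stretch, 12q13 had an O/E of 3.21 (1.38 to 6.32) with *KRT222* to the step in SNU-C1 cells, 5.29 (3.18 to 8.25) in HCC1954 and 2.5 (1.29 to 4.36) in OE33. With the step to *KRT17* it had 2.99 (0.972 to 6.99), 3.22 (1.29 to 6.63) and 5.30 (4.59 to 6.09). In OE33 the distal stretch with *KRT19*, *KRT14* and *KRT17* thus gave 198 of the 210 read pairs and the higher O/E.

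Single blocks of other chromosomes were compared with the partner cluster. From 12q13, the 1-Mb block with the highest O/E was 143 to 144 Mb of chromosome 8 in SNU-C1 cells (8.13 from 14 read pairs), 37 to 38 Mb of chromosome 17 in HCC1954 (8.05 from 185) and 39 to 40 Mb of chromosome 17 in OE33 (4.35 from 338). The latter block holds most of the 17q21 cluster, so in OE33 the highest block was the partner itself, and another line had an O/E of 4.70 with it. From 17q21 it was 62 to 63 Mb of chromosome 20 in SNU-C1 cells (9.01 from 37), 20 to 21 Mb of chromosome 13 in HCC1954 (9.11 from 60) and 1 to 2 Mb of chromosome 16 in OE33 (6.11 from 216). The block on chromosome 13 was specific to HCC1954, with 1.79 as the highest other line, and no other of the 2618 blocks was specific to that line there, where 0.401% of block pairs were. From the distal stretch of OE33 alone the highest block was 76 to 77 Mb of chromosome 16, with an O/E of 10.2 from 224 read pairs against 1.05 in the highest other line, and 2 of 2618 blocks were specific to OE33 there, a share near the 0.0692% of all block pairs. From the stretch with *KRT20* and *KRT23* 0 blocks were specific to OE33 and 2 to HCC1954.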

How the data were processed

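In situ Hi-C libraries cut with MboI were aligned to hg19 with BWA-MEM and cleared of PCR duplicates with Picard by the authors (of versions not given in the sources used here). Their deposited maps hold the signal of the authors, iteratively corrected contact frequencies between 40-kb bins. The study's methods speak of duplicate assays, and whether the single maps of SNU-C1, HCC1954 and OE33 pool them is not given.

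From this signal, read pairs were recovered by fitting 1 factor per bin (45 iterations, distances of at least 5 Mb, tolerance 0.02 for a whole number); totals were 80488736 to 162672559 per map. The 65229 bins whose coverage was 0.25 of the median or more in every line were kept. O/E divided contacts by the mean at the same distance. Line-specific pairs lay at least 200 kb apart with at least 10 read pairs, and 0.5 was added to each O/E. NumPy 2.4.6, pandas 2.3.3, SciPy 1.17.1 and Matplotlib 3.10.9 ran under Python 3.11.15, and the scripts were tested on simulated data.

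The genes named are the 10 members, the keratin genes with the highest or lowest compartment ratio, and genes at edges, boundaries, steps or contact peaks. *ERBB2* is named after the paper. Members and lists were chosen with earlier results of these data known. The comparison of cluster ends, the stretches at the coverage step, the contacts from single genes, the calls at 2 and 1/2, the member pairs, stretches and single-gene contacts without correction and the CTCF search were added after values were seen. Genes came from GENCODE lifted to GRCh37, whose chromosome lengths fit the bins.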

Additional observations from a re-analysis of the deposited data

How the results depend on the processing

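Of the values that answer a comparison, 147 stayed within their margin under the alternatives run and 25 moved, and of those for single genes, gene groups, edges or cluster means 201 stayed and 125 moved. Without the iterative correction, 15 member pairs of OE33 had an O/E of at least 1 in place of 7, 0 in place of 6 were at most 1/2 of the lowest other line, 1 line passed 1.5-fold on 12q13 and 1 on 17q21 in place of 0, OE33 had 1696 line-specific bin pairs on 17q21 in place of 13, and its O/E between the clusters was 17.3 in place of 3.73. The lowest insulation scores of OE33 on 17q21 became 1.4 at the *KRT222* edge and 1.24 at the *KRT17* edge.

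With windows of 480 kb and of 240 kb, SW480, SNU-C1 and HCC1954 had a boundary at 4 edges and OE33 at 3. Some of those at the *KRT222* edge lay inside the cluster. With a reach of 120 kb SW480 and SNU-C1 had 2, HCC1954 1 and OE33 0. With contacts at least 200 kb apart, 1 line passed 1.5-fold on 17q21. With a fold of 2 for line-specific pairs, SW480 had 7 on 12q13 and 2 on 17q21, SNU-C1 2 on 12q13 and OE33 103 on 17q21. Without SW480 replicate 1 or 2 the count of SW480 on 12q13 was 0, where its pair had 11 read pairs in the pool and 10 are needed. Contacts with other chromosomes gave 0.52 in SNU-C1 and 0.093 in OE33 for the ends of 12q13 over the other keratin genes. Between the clusters, an expected value over A with A blocks gave 2.79 in HCC1954 and 2.47 in OE33, and one over chromosomes 12 and 17 gave 2.49 and 2.62. The causes were not tested.

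No paired analysis was possible because SW480 alone had numbered replicates. Depth limited the contacts between the clusters, with 13 read pairs in SNU-C1.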
